A study of Mus musculus with 22 samples.

Results

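The Ms4a genes Ms4a4a, Ms4a4c, Ms4a6b, Ms4a6c, Ms4a6d and Ms4a7, the members of this family of membrane proteins that myeloid cells are known to use, were followed across dendritic cell (DC) subsets. They were picked by name, with earlier results of these data known, and are 6 of the 34047 genes in the RNA count table. To them were joined 36 of the 177956 ATAC-seq windows, stretches of 150 bases around a summit of accessible chromatin, whose peak lay nearer to a member than to any other annotated gene, within 50000 bases. The study asked how conventional type 2 DCs (cDC2s) divide by expression of the transcription factor T-bet, with type 1 DCs (cDC1s) as a comparison. RNA-seq covered cDC1s and both cDC2 subsets, T-bet- and T-bet+, of pooled spleen, with 3 libraries each, and of pooled mesenteric lymph node (MLN), with 3 cDC1 libraries and 2 for either cDC2 subset. ATAC-seq covered the same subsets of pooled spleen with 2 libraries each. All groups came from mice of the strain Tbx21RFP-cre, in which red fluorescent protein reports the T-bet gene Tbx21, so that the control subsets carry the reporter allele too. The mice were sex-matched, of either sex and 6 to 10 weeks old unless stated otherwise, and the labels name no treatment. The cells were sorted as CD11c+MHCII+ cells lacking CD64, Ly6C and lymphocyte markers, T-bet+ cDC2s by red fluorescence and cDC1s by XCR1. The labels describe pooled organs, and p-values measure the spread between such pools.

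MS4A proteins pass the membrane several times and sit beside signalling receptors, whose output they can change. The best known members mark other lineages: Ms4a1 encodes CD20 of B cells, and Ms4a2 encodes the beta chain of the IgE receptor of mast cells and basophils. Ms4a4a is known from macrophages, where its protein associates with Dectin-1, the receptor for fungal beta-glucan encoded by Clec7a, and Ms4a7 and Ms4a6d are likewise known from macrophages. Ms4a6b and Ms4a6c are found in monocytes and related cells, and Ms4a4c is a gene that type I interferon commonly induces.

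In the GRCm38 (mm10) genome the 6 genes lie along a single stretch of chromosome 19, placed here with GENCODE M21. In chromosome order they are Ms4a7 at chr19:11321039-11336146 on the minus strand, Ms4a4a at chr19:11375523-11392790 on the plus strand, Ms4a4c at chr19:11404770-11427246 on the plus strand, Ms4a6c at chr19:11469366-11482192 on the plus strand, Ms4a6b at chr19:11516512-11531256 on the plus strand and Ms4a6d at chr19:11586604-11604849 on the minus strand. Their exonic length ranges from 836 bases for Ms4a4a to 4485 bases for Ms4a6b. Ms4a6c shares 1088 exonic bases with BE692007 on the opposite strand, and because the sources used here do not say whether counting used the strand, reads of these genes cannot be told apart. Ms4a4c shares 28 exonic bases with the pseudogene Gm5692, and Ms4a6b shares 19 with the antisense gene Gm19261. Of the 50-base words in the transcripts, 8.19% in Ms4a4c, 5.85% in Ms4a6c, 3.44% in Ms4a6b and 2.31% in Ms4a6d also occur in another Ms4a gene, so that the reads of these genes are less certain than those of Ms4a4a and Ms4a7, which share none.

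The sequences that the accessibility results turn on are printed 5′ to 3′. The letters upstream of the starts of Ms4a7 and Ms4a6c, taken from RefSeq entries of GRCm38, are shown because a window at each start was more accessible in T-bet+ cDC2s than in their T-bet- counterparts. They cover chr19:11336147-11336396 on the minus strand and chr19:11469118-11469365 on the plus strand, and capitals mark the bases inside that window.
Ms4a7 start: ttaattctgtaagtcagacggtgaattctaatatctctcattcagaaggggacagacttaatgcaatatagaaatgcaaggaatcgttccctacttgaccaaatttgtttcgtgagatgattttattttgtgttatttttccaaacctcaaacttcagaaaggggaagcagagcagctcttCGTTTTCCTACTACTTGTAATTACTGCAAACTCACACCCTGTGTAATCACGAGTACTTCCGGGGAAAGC
Ms4a6c start: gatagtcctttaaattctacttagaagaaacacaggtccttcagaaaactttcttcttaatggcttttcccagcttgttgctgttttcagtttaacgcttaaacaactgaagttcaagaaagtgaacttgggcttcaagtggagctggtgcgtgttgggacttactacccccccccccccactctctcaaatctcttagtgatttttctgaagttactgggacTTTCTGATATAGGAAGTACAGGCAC
The windows shown away from the starts, on the plus strand of GRCm38, each hold a sequence word that a myeloid factor is known to bind. Other windows at the members hold words as well, as counted below, and are not printed. The window at chr19:11343269-11343418 lies upstream of Ms4a7, and that at chr19:11533537-11533686 lies beyond the end of Ms4a6b. Capitals mark the words found.
Ms4a7 upstream window: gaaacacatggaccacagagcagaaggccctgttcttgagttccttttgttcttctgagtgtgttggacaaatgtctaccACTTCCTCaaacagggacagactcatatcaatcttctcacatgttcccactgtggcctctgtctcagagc
Ms4a6b downstream window: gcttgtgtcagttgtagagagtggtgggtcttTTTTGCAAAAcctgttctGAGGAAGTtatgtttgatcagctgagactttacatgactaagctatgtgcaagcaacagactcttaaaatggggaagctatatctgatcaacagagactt

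Both strands were searched for 7 words, GAGGAAGT for PU.1, TTGCNNAA for C/EBP factors, the composite word of PU.1 with an IRF, AGGTGTNA for T-box factors, TGTGGTT for Runx, TAGGTCA for ROR and TGCTGAC for MAF. None of them occurs in the 250 bases before the 6 RefSeq starts of Ms4a4a, Ms4a4c, Ms4a6b, Ms4a6c and Ms4a7, and Ms4a6d was not matched. Among all 32851 RefSeq promoter stretches of that length, the share holding a word runs from 2.23% for ROR to 9.56% for C/EBP. The upstream window of Ms4a7 holds the PU.1 word on the opposite strand. The downstream window of Ms4a6b holds a PU.1 word and the C/EBP word on both strands, the latter as overlapping matches. Among the 36 windows at the members, 3 hold the PU.1 word, 3 the Runx word, 2 the C/EBP word and 2 the composite word. The T-box word occurs in 1, the MAF word in 1 and the ROR word in 0. Of all 177956 windows, 5.5% hold the PU.1 word, 5.23% the Runx word, 5.89% the C/EBP word and 3.19% the composite word. The T-box, MAF and ROR words occur in 1.92%, 3.03% and 1.57%. A match describes the letters and does not show that a factor was bound.

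Between 20993220 and 29006549 reads per RNA library were counted on genes, and between 7270164 and 10081555 reads per ATAC-seq library in windows. Levels are given as CPM, a gene's counts per mega-read of library size, scaled by edgeR's TMM factors over all 16 libraries, and as CPM per kilobase of exon where genes are compared. Tbx21 read 17.2 to 24.9 CPM in the splenic T-bet+ libraries and 0.289 to 2.38 in the T-bet- libraries, and 2.93 to 7.19 against 0.538 to 0.918 in MLN, as the labels say. The 7 markers listed for cDC1s summed to 3218 to 6365 CPM in splenic cDC1s and to 308 to 712 in splenic cDC2s, and the 6 cDC2 markers summed to 1498 to 3054 CPM in splenic cDC2s and to 19.7 to 31.1 in cDC1s. The libraries also fall into classes by GC content, taken for each gene as that of the richest 100-base stretch of its longest transcript. The measure is Spearman's correlation, over 7638 genes, of this GC content with a library's log2 CPM relative to the gene's mean. In spleen the 3 T-bet+ libraries, T-bet- replicate 3 and cDC1 replicates 1 and 2 lie at 0.21 to 0.34, while T-bet- replicates 1 and 2 and cDC1 replicate 3 lie at -0.4 to -0.18. All MLN libraries lie at 0.04 or below.

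All 6 members were low in cDC1s, and their levels in the cDC2 subsets took different forms. Ms4a4a, Ms4a6d and Ms4a7 were high in T-bet- cDC2s and low in T-bet+ cDC2s. Ms4a6b and Ms4a6c were high in both cDC2 subsets, with the top of the scale in splenic T-bet- cDC2s. Ms4a4c was high in both subsets as well, and overlapped between them in spleen. The summed level of the 6 members was 1071 ± 180.1 CPM in splenic T-bet- cDC2s (SD, n = 3), 554 ± 28.4 in T-bet+ cDC2s (n = 3) and 42.9 ± 4.71 in cDC1s (n = 3). In MLN it was 621 ± 87.1 CPM in T-bet- cDC2s (n = 2), 693 ± 316 in T-bet+ cDC2s (n = 2) and 32.4 ± 7.11 in cDC1s (n = 3). The part of this sum that Ms4a4a, Ms4a6d and Ms4a7 supplied was 11% to 13.9% in splenic T-bet- libraries against 2.26% to 2.64% in splenic T-bet+ libraries, and 14.3% to 19.5% against 0.986% to 4.61% in MLN. In bulk libraries such as these, fewer cells of a type and less RNA per cell cannot be told apart.

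**Figure D1:**
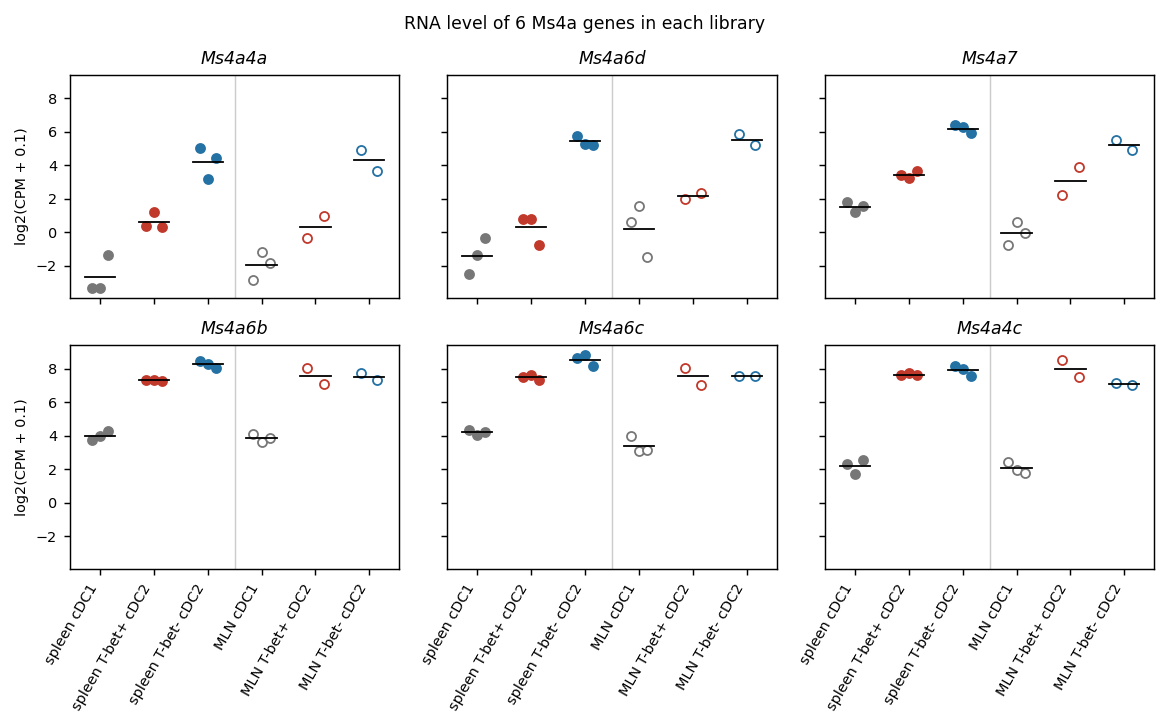
RNA level of each of the 6 Ms4a genes on the scale log2(CPM + 0.1), with a point per library and a line at the mean of each group; filled points are spleen and open points MLN. Ms4a4a, Ms4a6d and Ms4a7 are high in T-bet- cDC2s and far lower in the other subsets, while Ms4a6b, Ms4a6c and Ms4a4c are high in both cDC2 subsets and all 6 are low in cDC1s.

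Compared per kilobase, the most abundant member changed with the subset. In splenic T-bet- cDC2s the order ran from Ms4a6c at 186 ± 39.2 CPM per kb (SD, n = 3) and Ms4a4c at 139 ± 26.9, through Ms4a6b at 68.8 ± 9.85, to Ms4a6d, Ms4a4a and Ms4a7 at 25, 24.9 and 16.5. In splenic T-bet+ cDC2s Ms4a4c led with 115 ± 5.66 CPM per kb, above Ms4a6c at 87.8 ± 8.59 and Ms4a6b at 35.4 ± 0.801, while the other 3 members were at 2.4 or below. The libraries of Ms4a6c and Ms4a4c overlapped on this scale in splenic T-bet- cDC2s and did not in the splenic T-bet+ subset. Ms4a4c led in MLN T-bet+ cDC2s as well, at 158 ± 79.1 CPM per kb (n = 2) beside 96.6 ± 45.2 for Ms4a6c. The ranges of these genes overlapped there, while within each library Ms4a4c was the higher, at 214 against 129 in replicate 1 and 103 against 64.6 in replicate 2. In cDC1s Ms4a6c was the most abundant member, with 9.14 ± 0.913 CPM per kb in spleen and 5.35 ± 2.05 in MLN (n = 3 each).

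Ms4a4a, the Dectin-1 partner, read 32.2, 9 and 21.4 CPM in the splenic T-bet- libraries and 1.19, 2.25 and 1.12 in the T-bet+ libraries, while the 3 cDC1 libraries held 0, 0 and 6 reads. The T-bet- libraries spread widely, with replicate 2 lowest, and still all lay above every T-bet+ library. In MLN the gene read 29.9 and 12.7 CPM in the T-bet- libraries, 0.677 and 1.89 in the T-bet+ libraries and 0.0406 to 0.347 in cDC1s. Ordered by mean, the T-bet- groups of both tissues led at 21.3 and 20.8 CPM and overlapped each other, the T-bet+ groups followed, led by spleen at 1.52, and overlapped each other, and the cDC1 groups came last.

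Ms4a6d read 53.6, 39 and 37.5 CPM in the splenic T-bet- libraries, 1.66, 1.65 and 0.498 in the T-bet+ libraries and 0.081 to 0.677 in cDC1s. The T-bet+ and cDC1 libraries of spleen overlapped, and both lay far below the T-bet- libraries. In MLN it read 57.3 and 36.7 CPM in the T-bet- libraries, 3.88 and 4.94 in the T-bet+ libraries and 1.42, 2.82 and 0.255 in cDC1s, with no overlap between these groups. The T-bet- groups of both tissues, at means of 47 and 43.3 CPM, overlapped each other.

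Ms4a7 read 82.9, 76.8 and 60.6 CPM in the splenic T-bet- libraries, 10.5, 9.3 and 12.3 in the T-bet+ libraries and 3.36, 2.26 and 2.81 in cDC1s. The subsets of spleen did not overlap, and T-bet+ cDC2s stood between the other subsets. In MLN the order was the same, with 45.9 and 30.4 CPM in the T-bet- libraries, 4.48 and 14.8 in the T-bet+ libraries and 0.487 to 1.43 in cDC1s. MLN T-bet- libraries lay below those of spleen, and the T-bet+ groups of both tissues overlapped.

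Ms4a6b, which T cells also carry, read 352, 310.2 and 264 CPM in the splenic T-bet- libraries, 162, 159 and 155 in the T-bet+ libraries and 13.2, 16.1 and 19.6 in cDC1s. The T-bet+ libraries stood close together and below every T-bet- library. In MLN the cDC2 subsets overlapped, with 216 and 159.8 CPM in the T-bet- libraries and 268 and 136 in the T-bet+ libraries, and cDC1s read 12.1 to 17.4. By mean only the step from the cDC2 groups down to the cDC1 groups was free of overlap between neighbours.

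Ms4a6c read 404, 448 and 292 CPM in the splenic T-bet- libraries, 179, 198 and 163 in the T-bet+ libraries and 16.8 to 20.6 in cDC1s. Splenic T-bet- libraries lay above those of every other group. The remaining cDC2 groups overlapped, at 190.4 and 191 CPM in MLN T-bet- cDC2s and 264 and 132 in MLN T-bet+ cDC2s, and MLN cDC1s read 15.8, 8.37 and 8.7.

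Ms4a4c, the interferon-inducible member, read 286, 252 and 192 CPM in the splenic T-bet- libraries, 197, 213 and 195 in the T-bet+ libraries and 3.17 to 5.71 in cDC1s. Here the cDC2 subsets of spleen overlapped. In MLN T-bet+ cDC2s, at 375 and 179.5 CPM, lay above T-bet- cDC2s, at 143 and 129, and cDC1s read 3.31 to 5.4. The MLN T-bet+ libraries differed from each other in all members: replicate 1 was the higher for Ms4a4c, Ms4a6b and Ms4a6c and the lower for Ms4a4a, Ms4a6d and Ms4a7. Tbx21 was also lower in replicate 2, at 2.93 CPM against 7.19 in replicate 1.

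Against T-bet- cDC2s of spleen, T-bet+ cDC2s had less RNA of 5 of 6 members, where 3.44% of the 14377 genes tested were lower (edgeR quasi-likelihood test, Benjamini-Hochberg adjusted p under 0.05). Ms4a4a, Ms4a6d and Ms4a7 belong to a gene list that the study drew from these same libraries for its T-bet- cDC2s, so their direction is not independent evidence. Ms4a6d fell by 5.08 on the log2 scale (SE 0.65, edgeR adjusted p = 0.0023), a 33.8-fold difference. Ms4a4a fell by 3.77 (SE 0.81, edgeR adjusted p = 0.029) and Ms4a7 by 2.78 (SE 0.26, edgeR adjusted p = 0.00049), a 13.6-fold and a 6.85-fold difference. The drop was smaller for the monocyte-associated members, at -1.08 for Ms4a6c (SE 0.21, edgeR adjusted p = 0.017) and -0.96 for Ms4a6b (SE 0.2, edgeR adjusted p = 0.027). Ms4a4c differed by -0.27 (SE 0.24, edgeR adjusted p = 0.62) and did not pass. For these 5 all T-bet+ libraries lay below all T-bet- libraries, as for 13.9% of genes tested. The median log2 difference was -1.93 over the 6 members and -0.013 over all genes tested.

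The calls of Ms4a6d and Ms4a7 held in 15 of 15 alternative analyses, while those of Ms4a6b and Ms4a6c were lost in 7 of them and that of Ms4a4a in 5. Leaving out T-bet- replicate 1, or any T-bet+ library in turn, left 2 members called,  without T-bet- replicate 2 there were 3, and with the GC class of the libraries as a term there were 3. Over all genes the calls in both directions moved too, from 774 to 446 without T-bet- replicate 1, to 326, 307 and 360 without T-bet+ replicate 1, 2 and 3, to 455 without T-bet- replicate 2 and to 671 with the GC class. The higher GC class holds 1 T-bet- library of spleen and the lower class no T-bet+ library, too few for a comparison within a class.

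Most macrophage markers moved with this comparison. The list has 10 genes, among them Adgre1, C1qa, Mertk and Fcgr1. Together they summed to 1119.9 to 1533 CPM in splenic T-bet- libraries, 457 to 548 in T-bet+ libraries and 116 to 206 in cDC1s. Of the 10, 7 were lower in the T-bet+ than the T-bet- subset, where 3.44% of genes tested were, with none at 0 in either. In MLN the 10 summed to 1422 to 2461 CPM in T-bet- and 390.2 to 404 in T-bet+ libraries. There 9 were tested, with a median log2 difference of -4.08, and edgeR called 0. Adgre1 supplied much of the T-bet+ sums. It averaged 425 CPM in splenic T-bet- and 373 in splenic T-bet+ libraries, and in MLN the order was reversed, at 89 against 276. Fcgr1, which encodes the CD64 excluded by the sort, averaged 7.04 CPM in the splenic T-bet- libraries and 0.636 in the T-bet+ libraries. The 8 monocyte markers summed to 343 to 939 CPM in splenic T-bet- and 596 to 672 in T-bet+ libraries. Of these, 6 were tested and 1 was lower, beside the same 3.44% of genes. The part of macrophage and monocyte markers in the Ms4a difference was not tested.

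Both cDC2 subsets of spleen exceeded cDC1s, and these comparisons share the cDC1 libraries. In T-bet- cDC2s all 6 members were higher, where 9.65% of genes tested were, with a median log2 difference of 5.22 against -0.011 over all genes. The differences ran from 4.25 for Ms4a6b (SE 0.23, edgeR adjusted p = 5e-06) and 4.35 for Ms4a6c to 6.97 for Ms4a6d (SE 0.73, edgeR adjusted p = 0.00018) and 7.79 for Ms4a4a (SE 1.06, edgeR adjusted p = 0.00095). Ms4a4a has next to no reads in cDC1s, and without cDC1 replicate 3, the library that holds them, the fitted difference was 11.96, so its size is not well determined.

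In splenic T-bet+ cDC2s 5 of 6 members were higher than in cDC1s, where 9.97% of genes tested were, with a median of 3.28 against 0.034. Ms4a4c led with 5.46 (SE 0.3, edgeR adjusted p = 4.3e-06), a 44-fold difference. Ms4a6b and Ms4a6c followed at 3.29 and 3.27 (SE 0.22 each, edgeR adjusted p = 1.1e-05 and 1.3e-05). Ms4a7 was higher by 1.93 (SE 0.26, edgeR adjusted p = 0.00072) and Ms4a4a by 4.02 (SE 1.0, edgeR adjusted p = 0.021), the latter not called without T-bet+ replicate 2 or without cDC1 replicate 1 or 2, and at 8.19 without cDC1 replicate 3. Ms4a6d differed by 1.89 (SE 0.65, edgeR adjusted p = 0.076), with libraries that overlapped, and DESeq2 called it (adjusted p = 0.021), so that it called 6 of 6 members and 10.4% of genes in either direction.

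In MLN, T-bet+ and T-bet- cDC2s were compared with 2 libraries each, and edgeR called 0 of 6 members and 0% of the 15298 genes tested. The gene of the sort, Tbx21, was 2.76 higher in the T-bet+ subset (SE 0.64, edgeR adjusted p = 0.27) and thus not called either, while DESeq2 called it (adjusted p = 0.013). At an unadjusted p under 0.05 there were 4 members and 1444 genes, and DESeq2 called 2 members and 348 genes, 1.29% of those it tested. With the number in the library name as a block, edgeR called Ms4a4a and Ms4a6d among 130 genes. Ms4a4a differed by -4.1 (SE 0.79, edgeR adjusted p = 0.2), Ms4a6d by -3.46 (SE 0.84, edgeR adjusted p = 0.27) and Ms4a7 by -2.02 (SE 0.63, edgeR adjusted p = 0.38). The T-bet+ libraries lay below the T-bet- libraries for these 3 members, as they did for 20% of all genes tested. DESeq2 called Ms4a4a (adjusted p = 5.4e-06) and Ms4a6d (adjusted p = 0.0006). Ms4a4c pointed the other way, at 0.99 (SE 0.41, edgeR adjusted p = 0.51) with no overlap, as for 20.8% of genes, and Ms4a6b and Ms4a6c differed by 0.06 and 0.02 (SE 0.39 and 0.44).

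Against cDC1s of MLN, all 6 members were higher in T-bet- cDC2s, where 4.34% of genes tested were, by 3.75 for Ms4a6b (SE 0.37, edgeR adjusted p = 0.0017) to 6.88 for Ms4a4a (SE 0.79, edgeR adjusted p = 0.0036). In T-bet+ cDC2s 4 of 6 were higher, where 4.11% of genes were. Ms4a4c again stood first at 6.07 (SE 0.43, edgeR adjusted p = 0.00062), followed by Ms4a6c at 4.18, Ms4a6b at 3.81 and Ms4a7 at 3.42 (SE 0.6, edgeR adjusted p = 0.017). Ms4a4a and Ms4a6d differed by 2.78 and 1.59 (SE 0.77 and 0.72, edgeR adjusted p = 0.078 and 0.25) and were not called by edgeR, while DESeq2 called Ms4a4a (adjusted p = 0.0039). The call of Ms4a7 in T-bet+ cDC2s was lost without cDC1 replicate 3 of MLN, where its difference was 3.35 (edgeR adjusted p = 0.074), and that of Ms4a6d in T-bet- cDC2s without either T-bet- library (highest edgeR adjusted p = 0.087). The MLN comparisons with cDC1s share the cDC1 libraries as well.

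**Figure D2:**
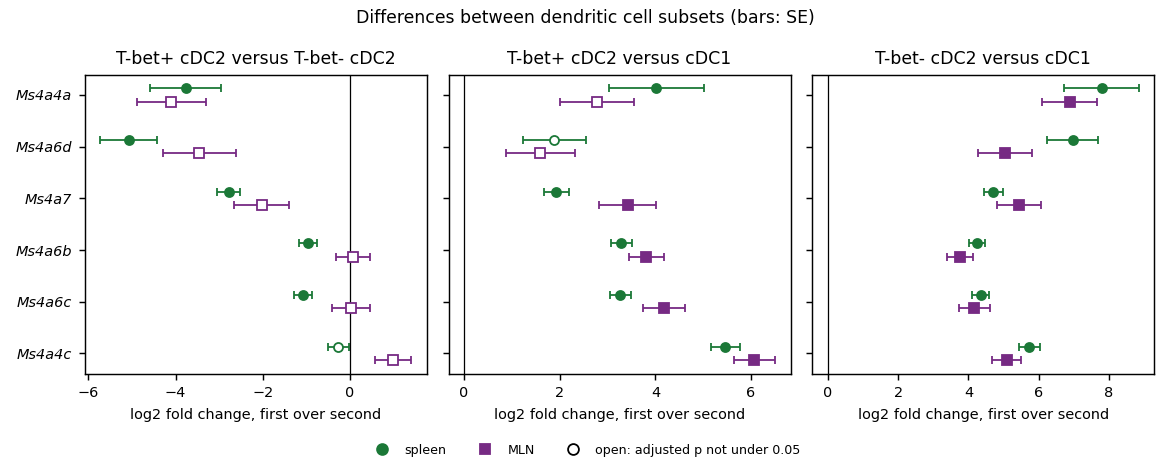
Fitted log2 fold change of each member between dendritic cell subsets, with bars of 1 SE, for spleen (circles) and MLN (squares); filled symbols passed the edgeR test. In T-bet+ against T-bet- cDC2s, Ms4a4a, Ms4a6d and Ms4a7 sit at -5.08 to -2.02 in both tissues, Ms4a6b and Ms4a6c are near -1 in spleen and near 0 in MLN, and all members sit above 0 against cDC1s.

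Whether these differences depended on the tissue was tested in a fit of all 16 libraries, as the difference in spleen minus that in MLN. For T-bet+ against T-bet- cDC2s it was -1.3 for Ms4a4c (SE 0.46), -1.06 for Ms4a6b (SE 0.41) and -1.14 for Ms4a6c (SE 0.45), each with an unadjusted p under 0.05 and an edgeR adjusted p of 0.95, so none passed. For Ms4a4a, Ms4a6d and Ms4a7 it was 0.28, -1.67 and -0.79 (SE 1.16, 1.01 and 0.63). None of the 6 members passed for either cDC2 subset against cDC1s, and DESeq2 called none in any of the 3 tests. Ms4a7, in T-bet+ cDC2s against cDC1s, had the remaining unadjusted p under 0.05 (-1.44, SE 0.62, edgeR adjusted p = 0.55). The T-bet+ libraries of spleen and MLN differ in GC class as well, so tests that use them cannot tell tissue and class apart in that subset. Over all genes edgeR called 0.00595% of the 16795 tested for T-bet+ against T-bet- cDC2s, 0.0893% for T-bet+ cDC2s against cDC1s and 0.0357% for T-bet- cDC2s against cDC1s, and DESeq2 0.126%, 0.703% and 0.356%.

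Within a subset, spleen and MLN differed in the called sense for 1 member. Ms4a7 was higher in cDC1s of spleen, at 2.81 ± 0.549 CPM, than of MLN, at 0.931 ± 0.475 (SD, n = 3 each), by 1.59 (SE 0.44, edgeR adjusted p = 0.034), where 3.93% of genes tested were higher. This call was lost without cDC1 replicate 1 or 2 of spleen, without cDC1 replicate 1 or 3 of MLN, and with the GC class as a term. In T-bet- cDC2s edgeR called 0 members, with 5.95% of genes called. There Ms4a6c was 1.0 higher in spleen (SE 0.33, edgeR adjusted p = 0.089), 3 members had an unadjusted p under 0.05, and DESeq2 called Ms4a6c (adjusted p = 0.036) among 6.6% of genes. In T-bet+ cDC2s edgeR and DESeq2 called 0 members, with 5.09% of genes called by edgeR and 8.24% by DESeq2, and 1 member, Ms4a6d at -1.79 (SE 0.72, edgeR adjusted p = 0.14), had an unadjusted p under 0.05. All splenic T-bet+ libraries are of the higher GC class and all MLN libraries of the lower, so in this subset tissue and class cannot be told apart. With the class as a term edgeR called 63 genes there in place of 855.

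Across the 16 libraries the members varied together to different degrees. Pearson's r of log2 CPM ran from 0.659 between Ms4a4c and Ms4a6d to 0.989 between Ms4a6b and Ms4a6c. Ms4a4c, Ms4a6b and Ms4a6c were at 0.976 or above with each other, and Ms4a4a was at 0.918 with Ms4a6d and 0.916 with Ms4a7. Ms4a7 stood nearer to Ms4a6c (0.885), Ms4a6b (0.868) and Ms4a4c (0.811) than to Ms4a6d (0.802). These are descriptions over libraries that share subset and tissue. Among 8093 genes outside the family, the pattern most like that of Ms4a4a was that of Il1rn, the IL-1 receptor antagonist (r = 0.97), before Acp2 (0.956) and Nr1h3 (0.954). For Ms4a7 it was that of Csf1r, the receptor for M-CSF (r = 0.972), before Adgre4 (0.963) and Clec4a3 (0.962), and for Ms4a6d that of Cx3cr1, the fractalkine receptor (0.932), before C3 (0.922) and Nr1h3 (0.914). Ms4a6b was closest to Ptpro (0.989), Klra17 (0.987) and Cybb (0.986). Ms4a6c was closest to Emb (0.989), Ptpro (0.988) and Itgam (0.988), which encodes the CD11b used to sort cDC2s. Ms4a4c was closest to S100a4 (0.992), Sirpb1a (0.99) and Ptpro (0.989).

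Of 13 other Ms4a genes looked for, 9 were in the table and 4 were tested in spleen. Ms4a1, the CD20 gene, ran against the members. It read 29.8, 22.8 and 32 CPM in the splenic T-bet+ libraries, 2.5, 6.63 and 5.33 in the T-bet- libraries and 35.9, 43.9 and 75.6 in cDC1s, with no overlap between subsets. The T-bet+ cDC2s exceeded the T-bet- cDC2s by 2.55 (SE 0.42, edgeR adjusted p = 0.0083), where 1.95% of genes tested were higher. The 6 B cell markers had another order, summing to 26.9 to 36.1 CPM in the T-bet+ libraries, 90.1 to 123 in the T-bet- libraries and 2.85 to 4.78 in cDC1s of spleen. In MLN Ms4a1 read 29.2 and 30.1 CPM in the T-bet+ libraries and 15.5 and 9.8 in the T-bet- libraries (log2 difference 1.18, SE 0.38, edgeR adjusted p = 0.4).

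Ms4a8a followed the members that were high in T-bet- cDC2s at a far lower level, with 81 reads over the 3 splenic T-bet- libraries, 1 over the T-bet+ libraries and 0 in cDC1s. It was called lower in the T-bet+ than the T-bet- subset (edgeR adjusted p = 0.02), and against cDC1s, with a floor of 3 reads over the group, T-bet- cDC2s were at least 28.2-fold higher. Ms4a14 had 80 reads over the splenic T-bet- libraries and 0 over the T-bet+ libraries (edgeR adjusted p = 0.064). In MLN it had 58 reads over the T-bet- libraries, 27 over the T-bet+ libraries and 0 in cDC1s, and the T-bet- subset was called higher than cDC1s, at least 26-fold with the same floor (edgeR adjusted p = 0.039). Ms4a8a and Ms4a14 passed the filter on low counts through the T-bet- libraries, where they are high, so their calls are not independent of that filter. Ms4a4b, a partner of the costimulatory receptor GITR in T cells, was higher than in cDC1s in both cDC2 subsets of both tissues, by 1.99 to 3.06, and averaged 0.568 to 11.9 CPM over the groups. Ms4a2, Ms4a3, Ms4a4d, Ms4a10 and Ms4a15 averaged under 1 CPM in every group.

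Genes known to work with MS4A proteins were examined as a list of 8, of which 7 were tested in spleen. Clec7a, which encodes Dectin-1, was the gene of that list called lower in the T-bet+ subset, where 3.44% of genes tested were. It read 3579, 1985 and 1506 CPM in the splenic T-bet- libraries, 599, 515 and 282 in the T-bet+ libraries and 70.5 to 88.7 in cDC1s. The cDC2 subsets did not overlap and differed by -2.34 (SE 0.37, edgeR adjusted p = 0.0068). The list's median was -0.53. Fcer1g, the Fc receptor gamma chain, averaged 952 ± 252 CPM in T-bet- cDC2s, 659 ± 90.5 in the T-bet+ subset and 17.5 ± 3.08 in cDC1s (SD, n = 3 each) of spleen, and exceeded cDC1s by 5.76 and 5.23 (SE 0.29 and 0.28, edgeR adjusted p = 3.9e-06 and 4e-06). Against cDC1s 6 of the 7 were higher in T-bet- cDC2s, where 9.65% of genes tested were. In T-bet+ cDC2s 5 of 7 were, beside 9.97% of genes. Trem2, the lipid receptor whose output MS4A genes have been linked to, had 67 reads over the splenic T-bet- libraries, 6 over the T-bet+ libraries and 0 over those of cDC1s, while its adaptor Tyrobp averaged 1351 ± 480.2, 1109 ± 163 and 300.1 ± 59.8 CPM. In MLN 0 of 6 tested differed between the cDC2 subsets by edgeR, 2 had an unadjusted p under 0.05, and DESeq2 called none. Clec7a there read 315 and 492 CPM in the T-bet- libraries and 178 and 127 in the T-bet+ libraries.

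At the chromatin of the locus the difference between cDC2 subsets ran the other way for several members. Of the 36 windows at the members, 29 passed the filter on low counts. Of these, 5 were more accessible in splenic T-bet+ than T-bet- cDC2s and 0 less accessible (edgeR, with an adjusted p below 0.01 and a log2 difference beyond 0.5 in size), where 3.92% of the 166547 windows tested were more accessible and 2.36% less accessible. Over the 29 windows 69% of log2 differences were positive and the median was 0.54, against 49.2% and -0.012 over all windows. Summed over all 36 windows, the libraries read 170.5 and 153 CPM in T-bet+ cDC2s, 108 and 113 in the T-bet- subset and 87.4 and 107 in cDC1s. By gene, the T-bet+ libraries stood above the others except at Ms4a6d, where the summed windows read 16.9 and 15.6 CPM in T-bet+, 17.8 and 20.7 in T-bet- and 10.7 and 16.3 in cDC1 libraries. Neighbouring windows of a gene can share a peak and are not independent.

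The window over the start of Ms4a7, whose letters are printed above, read 14.2 and 10.9 CPM in the T-bet+ libraries, 5.67 and 6.48 in the T-bet- libraries and 6.89 and 8.23 in cDC1s. T-bet+ libraries stood above all others, by 1.04 over T-bet- cDC2s (SE 0.26, edgeR adjusted p = 0.0034). A window 11.9 kb after this start, 282 bases from the start of a shorter transcript, read 6.31 and 5.02 CPM in the T-bet+ libraries, 2.1 and 2.13 in the T-bet- libraries and 0.713 and 1.04 in cDC1s (1.42, SE 0.37, edgeR adjusted p = 0.0056). The upstream window that holds the PU.1 word, 7.2 kb before the start, read 17 and 12 CPM in the T-bet+ libraries and 6.41 and 9.11 in the T-bet- libraries (0.89, SE 0.25, edgeR adjusted p = 0.0091), and cDC1s, at 13.3 and 10.6, overlapped with T-bet+ cDC2s.

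At the start of Ms4a6c, the window read 17.8 and 16.9 CPM in the T-bet+ libraries, 8.63 and 8.91 in the T-bet- libraries and 7.6 and 11.5 in cDC1s. The T-bet- and cDC1 libraries overlapped below the T-bet+ libraries, which exceeded T-bet- cDC2s by 0.99 (SE 0.23, edgeR adjusted p = 0.002). The window downstream of Ms4a6b, 17.1 kb from its start and with the PU.1 and C/EBP words, read 15.3 and 13.3 CPM in the T-bet+ libraries, 6.29 and 7.69 in the T-bet- libraries and 2.97 and 1.96 in cDC1s. Here the subsets stood apart, with T-bet+ above T-bet- cDC2s by 1.03 (SE 0.26, edgeR adjusted p = 0.0037). Set beside the RNA of spleen, Ms4a7, Ms4a6c and Ms4a6b had less RNA and these windows more reads in the T-bet+ than the T-bet- subset.

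**Figure D3:**
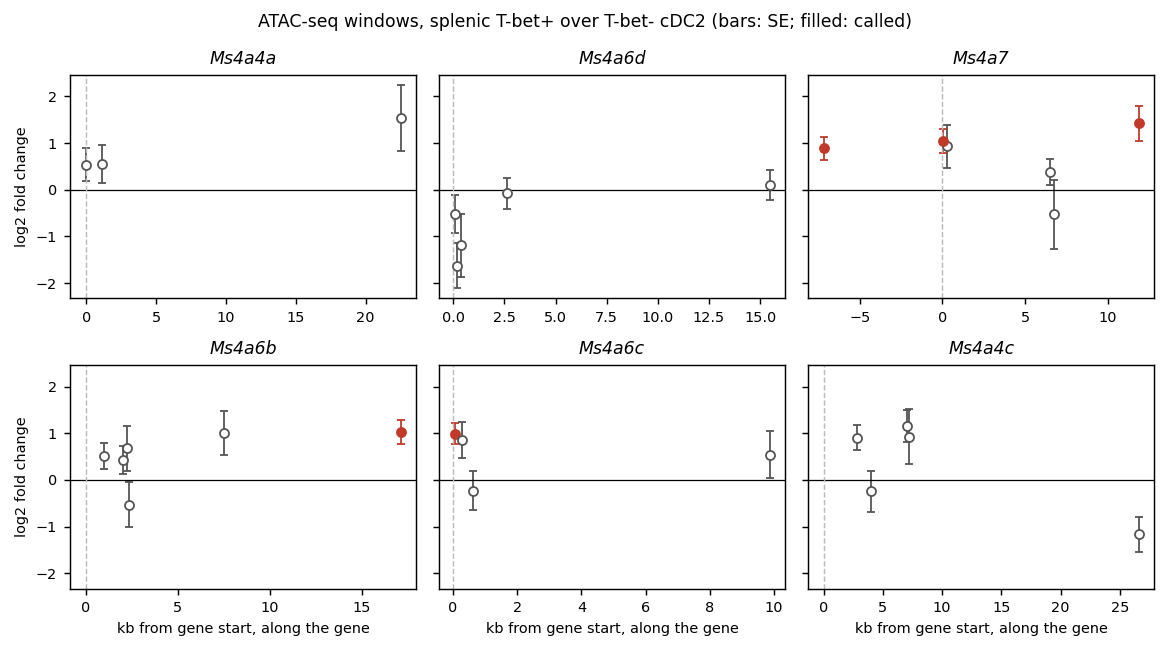
Fitted log2 fold change of ATAC-seq reads, splenic T-bet+ over T-bet- cDC2s, for the 29 windows tested, by distance in kb from the start of each member along its direction, with bars of 1 SE; filled points passed the edgeR thresholds. The 5 filled points, at Ms4a7, Ms4a6b and Ms4a6c, sit at 0.89 to 1.42, and the windows near the start of Ms4a6d sit below 0.

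Other windows did not pass. A window over the RefSeq start of Ms4a4c read 12.5 and 11.3 CPM in the T-bet+ libraries and 6.04 and 6.68 in the T-bet- libraries (0.9, SE 0.27, edgeR adjusted p = 0.019). At the start of Ms4a4a the difference was 0.54 (SE 0.35, edgeR adjusted p = 0.38). At Ms4a6d, the member with the largest RNA difference between these subsets in spleen, the windows with most reads, 15.5 and 2.6 kb after the start, differed by 0.11 and -0.08 (SE 0.32 and 0.33) and that over the start by -0.52 (SE 0.4, edgeR adjusted p = 0.46). The lowest of its 5 windows tested, singled out after its values were seen, lies 0.2 kb after the start and read 0.653 and 1.15 CPM in the T-bet+ libraries, 2.59 and 3.04 in the T-bet- libraries and 1.43 and 1.83 in cDC1s (-1.63, SE 0.48, edgeR adjusted p = 0.015). When whole peaks were tested in place of windows, 4 of the 19 peaks at the members were more accessible and 1 less accessible in T-bet+ cDC2s, beside 7.26% and 5.69% of all peaks tested. The latter lies between genes at chr19:11431189-11431531, nearest to Ms4a4c, and was singled out after its values were seen (-1.22, SE 0.35, edgeR adjusted p = 0.0066).

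The 5 window calls rest on few libraries. Without T-bet- replicate 1 or without T-bet- replicate 2 edgeR called 0 windows, and without T-bet+ replicate 1 it called 1, while over all windows, in both directions, it called 6139, 5580 and 6286 in place of 10460. The call of the upstream window of Ms4a7 held in 5 of 12 alternatives and those of the other 4 windows in 7 to 9. DESeq2 called 0 of the 29, with adjusted p of 0.011 to 0.063 for the 5 windows and 9 of 29 at an unadjusted p under 0.05, while it called 2.77% of all windows.

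**Figure D4:**
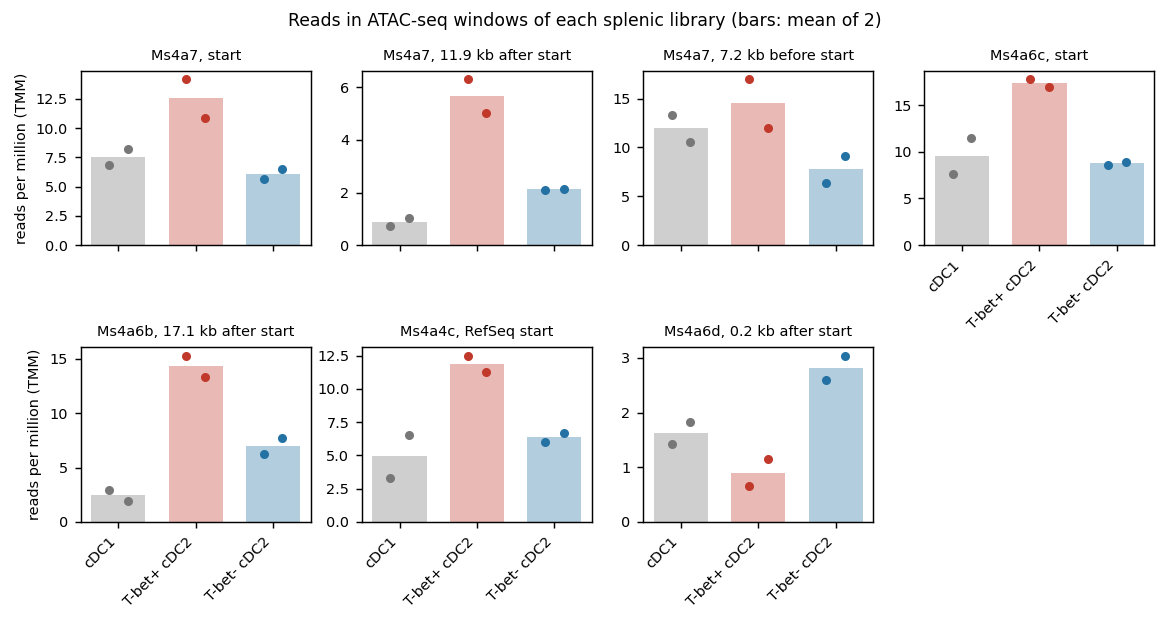
CPM (TMM scale) in 7 windows at the members for each of the 6 splenic ATAC-seq libraries, with a point per library and bars at the mean of 2. In 6 of the windows both T-bet+ libraries sit above both T-bet- libraries, and in the window 0.2 kb after the start of Ms4a6d both sit below. Of these windows 5 are shown because they were called for this difference, and that of Ms4a6d was picked after its values were seen. The order in the figure follows from that choice.

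Against cDC1s, 8 of the 29 windows were more accessible in T-bet+ cDC2s, where 11% of windows tested were, and 3 in T-bet- cDC2s, where 7.32% were, and these comparisons share the cDC1 libraries. The downstream window of Ms4a6b was more accessible in both, by 2.52 (SE 0.3, edgeR adjusted p = 2e-10) and 1.5 (SE 0.32, edgeR adjusted p = 0.00019). A window 1.0 kb after the start of Ms4a6b was likewise more accessible in both, by 1.99 and 1.48 (SE 0.33 and 0.34, edgeR adjusted p = 8.9e-07 and 0.00043), as was an intron window of Ms4a6d 2.6 kb after its start, by 1.24 and 1.31 (SE 0.38 each, edgeR adjusted p = 0.0075 and 0.0055). Other windows called in T-bet+ cDC2s lie at the RefSeq start of Ms4a4c (edgeR adjusted p = 0.00021), at Ms4a7 (2.68, 11.9 kb after the start), at the start of Ms4a6c (0.87) and in an intron of Ms4a6d (1.26). No window at Ms4a4a was called in any of the 3 comparisons by edgeR, and its windows number 3. Without cDC1 replicate 1 the T-bet+ comparison lost 4 of its 8 calls, those at the RefSeq start of Ms4a4c, at the start of Ms4a6c and in the introns of Ms4a6d, and another window was called lower. Without cDC1 replicate 2 the T-bet- comparison lost all 3 of its calls, and 1 other window was called.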

How the data were processed

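The members, lists and tests were chosen with earlier results of these data known. The authors aligned RNA-seq reads to mm10 with HISAT2 2.1.0, kept uniquely aligned reads with SAMtools 1.9 and counted them on GENCODE vM17 genes, and for ATAC-seq used Bowtie2 2.2.5 and MACS2 2.1.1.20160309 on all replicates together after shifting reads by strand (versions from the submitters' processing notes). The deposited values are raw counts per gene, per 150-base window and per peak. The score columns deposited with the peak and summit positions were not used.

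Here features were kept by filterByExpr, normalized by TMM and tested by the quasi-likelihood test of edgeR 4.0.16 (R 4.3.3) with Benjamini-Hochberg adjustment over all features, in 1 fit for spleen, 1 for MLN, 1 for all 16 RNA libraries and 1 for the 6 ATAC-seq libraries. No pair of libraries held identical counts. Similar genes have a mean log2 CPM of at least 3 (prior count 2). The named genes are the 6 members, 13 other Ms4a genes, 8 partner genes, Tbx21 and the 3 most similar genes of each member. Windows named were called in a comparison or hold most reads of a member, with exceptions named as such. An item among the windows is not reported here. The tests were checked on simulated counts. Alternatives were DESeq2 1.42.0 and other scaling, filters, fits, thresholds, windows and omitted libraries.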

Additional observations from a re-analysis of the deposited data

How the results depend on the processing

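No alternative turned a direction that had been called. For T-bet+ against T-bet- cDC2s of spleen, 5 members were called, 3 with the GC class as a term and 2 at an adjusted p under 0.01, with 2 to 5 when a library was left out. In MLN that comparison gave 0, with 2 by DESeq2, 3 without a filter on low counts and 0 when any library was left out. Spleen against MLN gave 0 in T-bet+ cDC2s and 1 without a filter, 0 in T-bet- cDC2s with 1 by DESeq2 and 0 to 1 with a library left out, and 1 in cDC1s with 2 by DESeq2, 2 without a filter, 0 with the GC class, 0 at an adjusted p under 0.01 and 0 to 2 with a library left out. For the windows, T-bet+ against T-bet- cDC2s gave 5, with 0 by DESeq2, 3 under library size alone, 3 at an absolute log2 fold change over 1, 3 when only windows in a gene or within 2000 bases counted, and 0 to 5 with a library left out. T-bet+ cDC2s against cDC1s gave 8, with 5 by DESeq2, 5 under library size alone and 5 to 8 with a library left out. T-bet- cDC2s against cDC1s gave 3, with 1 to 4 with a library left out. Where leaving out a library left 1 in its group, that library was assumed to vary like the others. The cause of these changes was not tested.

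With the replicate number as a block, the spleen T-bet+ against T-bet- comparison called 2 members and 356 of 14377 genes, and with the number in the library name as the block the same comparison in MLN called 2 members and 130 of 15298 genes. The block by replicate number also took the calls of Ms4a4a in splenic T-bet+ cDC2s and of Ms4a7 in MLN T-bet+ cDC2s against cDC1s, and of the upstream window of Ms4a7, which left 4 windows called between the cDC2 subsets. Libraries of the same replicate number did not all deviate together. Their correlations were -0.49 to 0.17 in spleen, -0.09 to 0.41 in MLN and -0.05 to 0.03 in ATAC-seq, so the replicate numbers were not taken as pairs. By replicate number, 3 of 9 spleen, 4 of 7 MLN and 2 of 6 ATAC-seq libraries correlated best with their own number. By the number in the library name, 6 of 7 MLN libraries did, with 0.04 to 0.41, so that a pairing of the MLN libraries by name was not excluded.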
